A study of Mus musculus with 9 samples.

Results

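The 3 lung grafts diagnosed with obliterative bronchiolitis (OB) were compared with the 3 grafts of the same transplantation that were diagnosed as free of it (non-OB). These 6 arrays, chosen by their labels alone, were 6 of the 9 arrays in the series, and the 3 arrays of sham-operated lungs served only as reference levels. Left lungs of male C57BL/10 donor mice had been transplanted orthotopically into male C57BL/6 recipients that differ from them in minor histocompatibility antigens, with mice of 8 to 12 weeks used, and all lungs were harvested on day 21. Sham mice underwent thoracotomy only. No treatment separated OB from non-OB grafts: the split was made by histology of the graft, both groups held the same donor tissue and the same host cells, and 1 array was run for each mouse. The sample labels give the same donor and recipient strain for the sham mice, whereas the methods name mice of both strains as sham.

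OB is the scarring of small airways that accompanies chronic rejection of a lung graft. Host T cells recognise donor antigens, the airway epithelium is injured, and inflammatory cells and fibroblasts fill the airway lumen, often in a patchy way, so that a piece of graft can hold open and closed airways together. The comparison asks which transcripts separated a graft with such airways from a graft of the same transplantation without them. Whole tissue was measured, so fewer cells of a type and less RNA per cell cannot be told apart in any result here.

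Gene expression was measured on Agilent 1-colour arrays, on which each spot glows in proportion to the amount of labelled RNA it has bound. All levels are log2 values of the spot intensity after each array was scaled to a common trimmed mean of 2500. Factors of 1.24 to 2.05 were needed for this, 58.6% to 69.6% of spots were well above background and no spot was saturated. Each OB array shared its slide with 1 non-OB array. OB 1 and non-OB 1 were on slide 1, OB 2 was paired with non-OB 3 on slide 2, and OB 3 with non-OB 2 on slide 3. Among the grafts, each OB array correlated best with the non-OB array of its own slide, with r = 0.981, 0.978 and 0.980 over all probes, and the OB arrays correlated less with each other (r = 0.961, 0.971 and 0.974). The deviations of the 2 arrays of a slide from their group means also ran together, with r = 0.28, 0.45 and 0.18. Between slides r ran from -0.45 to 0.23, and the highest, for OB 1 and non-OB 2, exceeded that of the slide 3 pair. Since slide and scan time split the arrays in the same way and no label tells why slide mates were alike, the results that carry the comparison are given within the slides too.

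**Figure D1:**
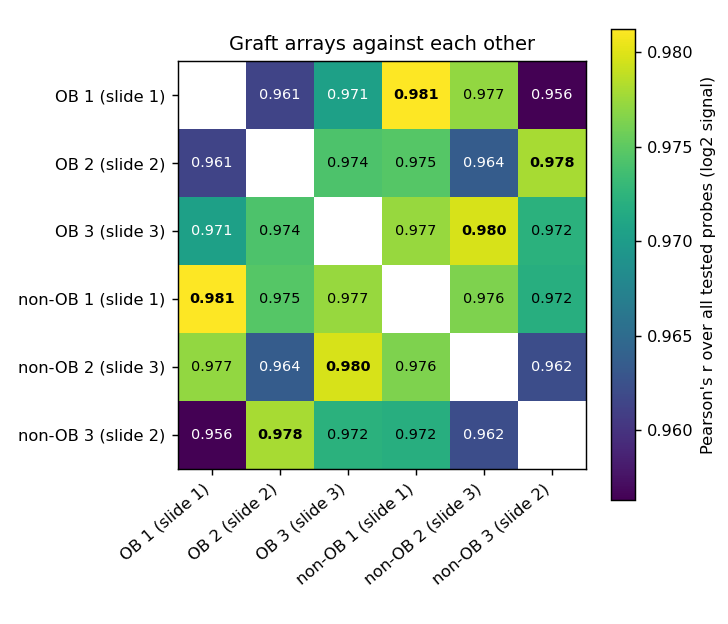
Pearson's r between the log2 signals of each pair of graft arrays over all tested probes, with pairs from 1 slide in bold. The 3 bold pairs reached 0.981, 0.978 and 0.980, and each joined an OB graft to a non-OB graft.

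No transcript separated the groups after adjustment for the number of tests. In the limma fit, which draws on all probes to estimate the variance of each, 0 of 56603 probes had an adjusted p under 0.05 (Benjamini-Hochberg), and the smallest adjusted p was 0.99998. With the slide as a fixed block the smallest was 0.9998, and with the slide as a random block it was 0.234. At an unadjusted p under 0.05, 241 probes (0.426%) were higher in OB and 630 (1.11%) were lower, together 1.54% of those tested, which is below the share that the threshold alone allows. With the slide as a block they were 453 (0.8%) and 1148 (2.03%). How many lay on either side changed with the scaling. Quantile normalization, which gives all arrays 1 distribution, turned 241 and 630 into 463 and 408, and shifted the median difference over all probes from -0.05 to -0.002. The methods' t-test gave 301 and 711 at its unadjusted threshold and 0 after adjustment. The genes below are therefore described by their levels, their overlap and the direction on each of the 3 slides. Their adjusted p in that fit was 0.99998 or higher throughout, SE is the standard error of the difference from it, and counts at p under 0.05 are unadjusted. Groups are called apart where all 3 OB arrays lay on 1 side of all 3 non-OB arrays, for which an exact two-sided permutation test gives p = 0.1, the smallest that 3 against 3 arrays allow. Where each gene was represented by its brightest probe, 22910 genes had a median log2 difference of -0.04 (OB minus non-OB), and 35.6% lay above 0 and 64.4% below it. All 3 OB arrays lay above all 3 non-OB arrays in 1.43% of genes and below them in 3.59%. The difference had the same sign on all 3 slides, with OB higher, in 6.31% of genes and, with OB lower, in 15.5%. At an unadjusted p under 0.05, 0.624% of genes were higher and 1.16% lower, or 0.978% and 1.93% with the slide as a block.

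Genes of the mucous and secretory airway epithelium held several of the largest differences towards OB outside muscle and fat genes, while the genes of club cells and cilia did not share them. *Itln1* encodes intelectin, a lectin of goblet cells that binds microbial sugars. Its level was 9.05, 9.60 and 8.52 in OB 1, 2 and 3 and 4.21, 6.23 and 5.56 in non-OB 1, 2 and 3. The groups were apart by 2.29 or more, and the mean difference was 3.72 (SE 0.57). Within slides 1, 2 and 3 the difference was 4.84, 4.04 and 2.29. On the sham arrays *Itln1* averaged 3.61 ± 1.12 (SD).

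*Ltf*, the iron-binding lactoferrin of airway glands and neutrophil granules, stood at 12.61, 11.99 and 11.37 in OB 1 to 3 and at 9.76, 10.21 and 8.57 in non-OB 1 to 3. The lowest OB graft lay above the highest non-OB graft, with a difference of 2.48 (SE 0.52) and of 2.85, 3.42 and 1.17 within the slides. *Dmbt1*, a scavenger receptor protein of mucosal fluids, stood at 7.95, 6.62 and 7.87 against 5.61, 3.15 and 4.61. Its groups did not overlap either (difference 3.02, SE 0.70, within slides 2.34, 2.01 and 4.72). The disulfide isomerase *Agr2*, which folds mucins in goblet cells, was 9.77, 8.99 and 7.28 against 5.91, 7.07 and 4.29. OB 3 exceeded non-OB 2, its slide mate, by only 0.20, so the difference of 2.92 (SE 0.90) came from slides 1 and 2. *Tmc5*, a membrane protein of mucosal epithelia, was 2.05 higher in OB (SE 0.58) by its brighter probe, with no overlap, while its dimmer probe was well above background on no array. *Sult1e1*, the oestrogen sulfotransferase, was well above background in all 3 OB grafts and in no non-OB graft, at least 4.76-fold higher.

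The antimicrobial lectin *Reg3g* reached 12.73, 12.35 and 11.09 in OB against 9.65, 11.29 and 6.86 in non-OB, but on slide 3 it was lower in OB by 0.20 and the groups overlapped. The gel-forming mucins did not separate the groups. *Muc5b* was 14.08, 10.14 and 12.09 against 11.41, 11.82 and 10.65, and *Muc5ac* 8.46, 4.79 and 6.11 against 4.75, 5.95 and 5.29. OB 1 was the highest graft for both mucins, and OB 2 was the lowest for *Muc5b*. *Clca1*, a secreted goblet cell protein, ranged even wider, from 8.23 to 14.54 within OB and from 7.60 to 11.66 within non-OB. Over the goblet and mucin list, 15 of 16 genes were measured, 12 were higher in OB and the median difference was 0.99, with 3 genes apart and 4 at p under 0.05. The median was 2.67 on slide 1 and only 0.19 and 0.16 on slides 2 and 3.

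Club cells, the secretory cells of small airways, are marked by the secretoglobin *Scgb1a1*. It stood at 18.48, 14.20 and 17.91 in OB and at 18.06, 18.49 and 18.58 in non-OB, against 18.59 ± 0.11 (SD) in sham lungs. OB 2 alone was low, 4.38 below its slide mate. The 13 club cell genes had a median of -0.68 and 10 were lower, with medians of 0.77, -1.35 and -0.77 on slides 1 to 3 and 1 gene apart. The 26 measured genes of cilium movement had a median of -0.28 and no gene apart, and the slides again disagreed, with slide 1 at 0.53 and the others below 0. *Foxj1*, the regulator of motile cilia, differed by -0.03 (SE 0.41).

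The basal cell keratin *Krt5*, made by the progenitor cells of large airways and by squamous epithelium, was 6.57, 11.41 and 5.82 in OB and 4.26, 4.30 and 4.17 in non-OB, where it was not well above background. The mean difference was 3.69 (SE 1.43), and OB 2 carried most of it. *Krt17* followed the same order, at 7.45, 11.53 and 7.17 against 6.99, 6.62 and 7.14. OB 2, the graft with these 2 keratins high, was also the graft with *Scgb1a1* low. *Trp63*, another basal cell gene, differed by 0.05 (SE 0.26), and 8 of the 17 genes of the basal and squamous list were well above background on no graft array.

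**Figure D2:**
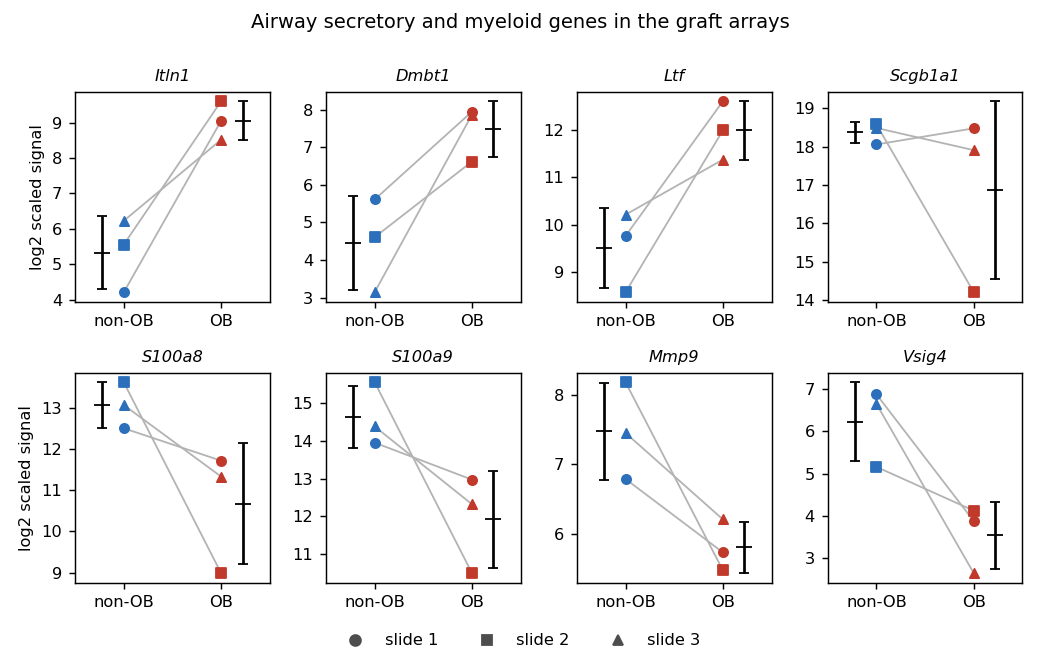
Log2 scaled signal of 4 airway genes (top) and 4 myeloid genes (bottom) on the non-OB (blue) and OB (red) arrays, with lines joining the 2 arrays of a slide and bars giving the mean ± SD of 3 arrays. Intelectin and lactoferrin were higher in OB on every slide, *S100a8*, *S100a9*, *Mmp9* and *Vsig4* were lower on every slide, and *Scgb1a1* was low only in OB 2.

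T cell genes were mostly higher in OB, and those of CD8 T cells more so than *Cd4*. *Cd8a* and *Cd8b1* encode the 2 chains of the co-receptor with which cytotoxic T cells read MHC class I. *Cd8a* was 9.48, 9.86 and 10.12 in OB and 8.60, 8.14 and 8.83 in non-OB, with no overlap. The difference was 1.30 (SE 0.29), and a second probe gave 1.36. *Cd8b1* was 12.69, 12.26 and 12.79 against 11.69, 11.18 and 11.40, a difference of 1.16 (SE 0.25). Within the slides *Cd8a* differed by 0.89, 1.03 and 1.99 and *Cd8b1* by 1.00, 0.86 and 1.61. *Cd4*, the co-receptor of helper T cells, stood at 11.67, 11.35 and 11.73 against 11.52, 11.52 and 11.33 and differed by 0.13 (SE 0.21). The difference between the CD8 and *Cd4* values was not tested.

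Of the 22 T cell genes, 21 were higher in OB with a median of 0.41, against -0.04 over all genes. Of these, 5 were apart, 12 were higher on all 3 slides and 2 had a p under 0.05. The slide medians were 0.15, 0.03 and 1.02, so slide 3 carried most of the median. The shared chains of the T cell receptor were among the genes apart, with *Cd3g* 0.64 higher (SE 0.26) and *Cd3e* 0.41 higher (SE 0.24). *Themis*, which tunes T cell receptor signals and belongs to the thymus list, was 0.67 higher without overlap.

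Among the cytotoxic effectors, *Gzmk* and *Nkg7* were apart, whereas no other gene of the list was. Granzyme K (*Gzmk*) was 9.15, 8.03 and 8.45 in OB and 8.01, 5.37 and 6.44 in non-OB, so that the groups nearly touched. It differed by 1.93 (SE 0.70) and by 1.14, 1.58 and 3.08 within the slides. *Nkg7*, a granule protein of cytotoxic cells, was 13.70, 13.23 and 13.77 against 12.96, 12.32 and 12.52 and differed by 0.97 (SE 0.27). Granzyme B (*Gzmb*) differed by 0.03 (SE 0.31), perforin (*Prf1*) by 0.05 (SE 0.29) and granzyme A (*Gzma*) by -0.37 (SE 0.23). Of the 13 natural killer cell genes 8 were lower in OB, where 64.4% of all genes were, with a median of -0.18 and 1 gene apart above.

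Of 12 genes of T cell inhibition and exhaustion 3 were apart above, *Lag3*, *Tox* and *Cd160*. *Lag3*, a receptor for MHC class II that restrains T cells, was 9.24, 8.90 and 9.20 against 8.52, 8.01 and 8.09, and *Tox*, a nuclear factor of exhausted T cells, was 9.54, 9.39 and 9.83 against 8.75, 8.18 and 8.82. Neither overlapped, with differences of 0.91 (SE 0.24) and 1.00 (SE 0.26). *Cd160* was apart too, by means of 6.21 and 3.78, but OB 3 alone stood 5.04 above its slide mate. *Pdcd1*, which encodes the receptor PD-1, was 12.02, 10.50 and 11.26 against 10.91, 9.62 and 9.88. These groups overlapped, since OB 2 lay below non-OB 1, yet each OB graft lay above its slide mate, by 1.11, 0.61 and 1.64. *Tigit* ran the same way (0.87, 0.44 and 1.17 within the slides). The PD-1 ligand gene *Cd274* differed by 0.21 (SE 0.22). Over the list 10 of 12 genes were higher and the median was 0.29, or 0.30, 0.21 and 0.82 on slides 1 to 3, and 3 had a p under 0.05, or 4 with the block. The median was 0.11 without non-OB 2 and 0.16 without slide 3. In sham lungs *Pdcd1* averaged 5.25 ± 0.80 (SD) and *Lag3* 5.39 ± 0.40, below every graft.

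Of 31 measured chemokines 4 were apart above, all of the CC family that draws T cells and macrophages, and 2 were apart below. *Ccl4*, a chemokine made by stimulated T cells and macrophages, stood first by p among the genes higher in OB that met the naming conditions. It was 11.50, 11.68 and 11.65 in OB and 10.35, 9.95 and 10.13 in non-OB, with a gap of 1.15 between the groups. Both of its probes agreed (differences 1.46 and 1.43), with SE 0.21 for the brighter one, and the slides gave 1.15, 1.54 and 1.70. *Ccl3*, a close relative of *Ccl4*, was 10.10, 10.37 and 10.71 against 9.46, 9.15 and 8.72, a difference of 1.28 (SE 0.29) and of 0.64, 1.64 and 1.56 within the slides. *Ccl5*, a chemokine stored by memory T cells, was 15.99, 15.37 and 15.63 against 15.23, 14.51 and 14.51 and differed by 0.91 (SE 0.30). *Ccl8*, a chemokine of macrophages, was 15.07, 14.40 and 14.62 against 13.80, 13.64 and 13.25 and differed by 1.13 (SE 0.27, within slides 1.27, 1.15 and 0.98). In sham lungs these 4 genes averaged 7.32 to 13.87 and lay below every graft.

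Other chemokines did not follow. *Ccl2*, the monocyte chemoattractant, differed by 0.02 (SE 0.23). The interferon-induced *Cxcl9* and *Cxcl10* were 0.63 and 0.44 higher on average but were lower in OB on slide 1. The genes apart below were *Cxcl14*, a chemokine of epithelium, with a difference of -0.44 (SE 0.23, within slides -0.61, -0.04 and -0.69), and *Ccl17*, a chemokine of dendritic cells, with a difference of -0.24 (SE 0.21). Over the list 20 of 31 genes were higher in OB with a median of 0.10, and 0.19, 0.02 and 0.01 on slides 1 to 3.

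The receptors were split. *Cxcr6*, a receptor of tissue-resident T cells, was 12.29, 12.64 and 12.83 in OB and 11.80, 11.44 and 11.87 in non-OB, with a difference of 0.89 (SE 0.24). *Xcr1*, which marks the dendritic cells that present antigen to CD8 T cells, was 7.64, 6.47 and 6.51 against 5.14, 6.09 and 5.92, a difference of 1.15 (SE 0.43) that was 2.50 on slide 1 and 0.55 and 0.41 on the others. The scavenging receptors ran in opposite directions. *Ackr1*, made by venules, was 9.84, 10.23 and 9.80 against 8.94, 8.42 and 9.48 (difference 1.01, SE 0.33), and *Ackr2*, which degrades inflammatory chemokines, was 11.73, 11.00 and 10.96 against 12.27, 12.12 and 11.91 (difference -0.87, SE 0.28). Neither pair of groups overlapped.

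**Figure D3:**
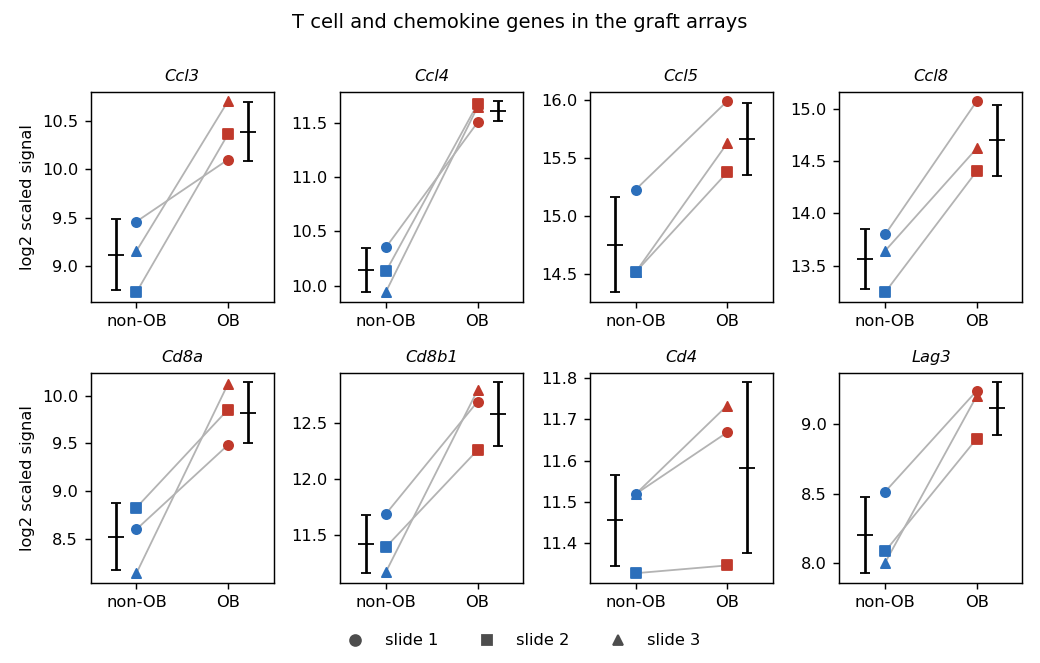
Log2 scaled signal of 4 chemokine genes (top) and 4 T cell genes (bottom) on the non-OB (blue) and OB (red) arrays, drawn as for the airway genes with a line for each slide and mean ± SD of 3 arrays. All genes but *Cd4* were higher in every OB graft than in every non-OB graft.

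Cytokine genes lay on both sides. Of the 13 T cell cytokines 1 was apart above and 2 below. *Il10*, which restrains inflammation, was 5.25, 4.86 and 5.11 in OB and 4.86, 4.39 and 4.26 in non-OB (difference 0.57, SE 0.25), near the background. *Csf2*, the growth factor of granulocytes and macrophages, differed by -0.58 (SE 0.34, within slides -1.21, -0.53 and -0.02), and *Il22* was well above background on no OB array and on 2 non-OB arrays. Of the 16 inflammatory cytokines 2 were apart below, *Il1b* and *Il23a*, the latter well above background in non-OB 2 alone. *Ifng* was 9.56, 10.23 and 10.46 against 9.84, 9.27 and 9.13 and *Il21* 6.35, 6.64 and 6.98 against 6.61, 5.65 and 6.10, and for both the OB graft of slide 1 lay below its slide mate. The 28 measured genes of the interferon gamma response were higher in 26 cases with a median of 0.34, but 1 gene was apart, 0 had a p under 0.05, and the slide medians were -0.21, 0.55 and 0.65. The MHC class I list (median 0.15, 15 of 16 genes higher) and the class II list (median 0.22, 11 of 12 higher) had 2 and 3 genes apart and none at p under 0.05. *H2-Ab1*, a class II chain, stood between 17.31 and 17.75 in all 6 grafts and differed by 0.09 (SE 0.22), whereas *H2-Aa*, the other chain of that molecule, was 0.43 higher (SE 0.21) without overlap. Of 8 genes on the qPCR list 7 were matched on the array, and all 7 were higher in OB, with a median of 0.54. These genes had been picked for qPCR with results of the same grafts known, so their direction is no independent evidence, and only *Ccl3* and *Tlr2* (0.33, SE 0.20) were apart.

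Genes of B cells and plasma cells did not separate the groups. The 15 B cell genes had a median of -0.22 and slide medians of -0.69, -0.15 and 0.32, and the joining chain *Jchain*, made by antibody-secreting cells, averaged 14.33 ± 0.76 in OB and 14.31 ± 0.58 in non-OB (SD, n = 3 each), far above the 9.39 ± 0.19 of sham lungs. No gene of the B cell, plasma cell or tertiary lymphoid lists was apart. The paper describes CD45R/B220 staining as qualitatively weaker in non-OB than in OB grafts, and *Ighg3* as higher in OB by qPCR. *Ighg3* was not matched on the array, so its level was not compared here.

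Macrophage genes were mostly higher in OB, with 4 of the list apart above, among them *Trem2*, *Cd68* and *Adgre1*, and 1 below. *Trem2*, a lipid receptor of tissue macrophages at sites of injury, was 13.12, 13.35 and 13.11 in OB and 12.26, 12.56 and 12.52 in non-OB, a difference of 0.75 (SE 0.20) with 0.86, 0.83 and 0.55 within the slides. *Cd68*, a lysosomal protein of macrophages, was 0.51 higher (SE 0.21) and *Adgre1*, a surface receptor of mature macrophages, 0.68 higher (SE 0.31), both without overlap. *Clec10a*, a lectin of macrophages and dendritic cells counted in the dendritic cell list, was 11.21, 11.69 and 11.50 against 10.74, 10.70 and 10.80 (difference 0.72, SE 0.21). Against these stood *Vsig4*, the complement receptor of resident macrophages. It was 3.88, 4.13 and 2.65 in OB, well above background on no array, and 6.88, 6.65 and 5.16 in non-OB, at least 4.47-fold lower in OB. *Marco*, *Cd163* and *Cd209f* also had lower means in OB (-0.89, -0.84 and -1.13) but overlapped. Over the macrophage list 18 of 24 genes were higher with a median of 0.49. The slide medians were 0.34, 0.07 and 0.34. Of the Fc receptors, through which antibody engages these cells, the shared signalling chain *Fcer1g* was apart (14.61, 14.54 and 14.55 against 14.24, 14.12 and 13.76).

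Neutrophil genes ran the other way. *S100a9* and *S100a8* encode the 2 subunits of calprotectin, the calcium-binding protein that fills the neutrophil cytosol. *S100a9* was 12.97, 10.50 and 12.32 in OB and 13.95, 14.38 and 15.55 in non-OB, and *S100a8* was 11.71, 8.98 and 11.33 against 12.50, 13.06 and 13.61. For both genes the highest OB graft lay below the lowest non-OB graft and OB 2 was the lowest of all. The differences were -2.70 (SE 0.74) and -2.38 (SE 0.76). Slide 2 carried most of them, at -5.05 for *S100a9* against -0.98 and -2.06 on slides 1 and 3. *Mmp9*, the gelatinase of neutrophil granules, was 5.73, 5.47 and 6.20 against 6.79, 7.45 and 8.18, a difference of -1.67 (SE 0.41) that its other probe put at -2.18. *Mmp8*, the neutrophil collagenase, differed by -0.82 (SE 0.29) and *Cxcr2*, the receptor that draws neutrophils to CXC chemokines, by -1.78 (SE 0.64), both without overlap. The stefins *Stfa2* and *Stfa2l1*, whose near-identical sequences may share signal, differed by -1.84 and -1.83.

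Of the 14 measured neutrophil genes 11 were lower with a median of -0.54, and slide medians of -0.32, -1.03 and -0.51. The medians of platelet genes (-0.18, -1.50 and -0.70) and erythroid genes (0.17, -1.31 and -0.76) were also lowest on slide 2, and OB 2 was the lowest graft by mean log2 level in all 3 lists. The part of blood content in the neutrophil values was not tested. The 6 genes apart below were *S100a8*, *S100a9*, *Cxcr2*, *Mmp8*, *Mmp9* and *Stfa2*, all with a p under 0.05, or 4 of the list with the block. *Ltf* was the gene apart above. The primary granule genes *Mpo* and *Elane*, made by neutrophil precursors, differed by 0.00 and 0.05. *Csf3r*, the receptor for granulocyte colony-stimulating factor, differed by -0.23 (SE 0.37). Sham lungs held *S100a8* at 12.60 ± 1.15 (SD) and *S100a9* at 14.37 ± 1.09, near the non-OB grafts. *Il1b* was also below its non-OB levels in every OB graft (9.41, 8.55 and 9.08 against 9.67, 9.44 and 10.49).

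The upstream sequences of 5 of these genes are shown because *Itln1*, *Ltf* and *Ccl3* were among the genes apart above and the calprotectin pair among those apart below. Each is the 250 bases before the transcript start in RefSeq's GRCm38.p6 table, read on the gene's own strand. Capitals mark matches on either strand to TATAAA (the TATA box), TGANTCA (AP-1), TTGCNNAA (C/EBP, the factor family of myeloid cells) or TTCNNNGAA (STAT).
Itln1, chr1:171535295-171535544, minus strand: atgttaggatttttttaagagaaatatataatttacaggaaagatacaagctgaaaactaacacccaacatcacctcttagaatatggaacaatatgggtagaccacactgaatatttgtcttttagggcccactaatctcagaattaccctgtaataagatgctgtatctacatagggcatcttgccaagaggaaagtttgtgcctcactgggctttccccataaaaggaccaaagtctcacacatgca
Ltf, chr9:111019042-111019291, plus strand: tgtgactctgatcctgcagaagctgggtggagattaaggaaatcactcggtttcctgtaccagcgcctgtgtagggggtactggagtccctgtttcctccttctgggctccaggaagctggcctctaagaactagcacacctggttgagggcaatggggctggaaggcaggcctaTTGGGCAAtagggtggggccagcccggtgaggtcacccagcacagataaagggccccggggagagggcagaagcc
Ccl3, chr11:83649379-83649628, minus strand: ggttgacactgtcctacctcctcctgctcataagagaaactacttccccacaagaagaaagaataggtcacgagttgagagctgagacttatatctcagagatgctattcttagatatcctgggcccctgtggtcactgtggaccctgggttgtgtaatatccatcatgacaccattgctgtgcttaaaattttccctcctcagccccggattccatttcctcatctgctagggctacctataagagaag
S100a8, chr3:90668821-90669070, plus strand: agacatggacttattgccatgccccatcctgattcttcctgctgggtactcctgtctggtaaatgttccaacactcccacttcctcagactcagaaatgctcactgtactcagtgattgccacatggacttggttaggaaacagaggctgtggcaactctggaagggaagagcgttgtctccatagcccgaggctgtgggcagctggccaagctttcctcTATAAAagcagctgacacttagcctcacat
S100a9, chr3:90695722-90695971, minus strand: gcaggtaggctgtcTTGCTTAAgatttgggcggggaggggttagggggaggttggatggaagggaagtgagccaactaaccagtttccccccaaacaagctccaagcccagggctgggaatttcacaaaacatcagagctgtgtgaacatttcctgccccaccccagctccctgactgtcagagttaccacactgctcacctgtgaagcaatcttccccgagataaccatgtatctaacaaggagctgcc

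The window of *S100a8* held TATAAA from 30 bases before the start, as 12.4% of 32851 promoter windows of this length did. The C/EBP letters stood 236 bases before the start of *S100a9* and 75 before that of *Ltf*, and 9.56% of windows held them. None of the 5 windows matched the AP-1 or STAT letters, which 6.75% and 7.02% of windows held, and a window without a match says only that these letters are not in it.

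Genes of the gas-exchange surface and of vessels mostly lay below their non-OB levels, with list medians smaller in size than that of the neutrophil genes. *Cldn5*, the tight-junction claudin of endothelium, was 14.06, 13.22 and 13.67 in OB and 14.56, 14.76 and 14.63 in non-OB, with means of 13.65 and 14.65, an SE of 0.27 for their difference, and -0.50, -1.41 and -1.10 within the slides. The adhesion molecule *Icam2* differed by -0.70 (SE 0.24) and the VEGF receptor *Flt1* by -0.59 (SE 0.23), again without overlap. All 20 endothelial genes had lower means in OB, with a median of -0.37. Of these 7 were apart, 12 were lower on all 3 slides and 3 had a p under 0.05, and the slide medians were -0.26, -0.37 and -0.58. Sham lungs had still higher levels (*Cldn5* 15.80 ± 0.25, SD). Of the 14 genes of lung capillaries 12 were lower but none was apart, and the slide medians were -0.20, -0.53 and -1.01. Among them *Prx*, which anchors junctions of capillary endothelium, differed by -1.37 (SE 0.52) with overlap.

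*Hopx*, a nuclear factor of the flat alveolar type 1 cells, was 13.83, 13.10 and 13.70 against 14.15, 14.29 and 14.22, a difference of -0.68 (SE 0.26). All 13 measured type 1 genes had lower means (median -0.29), 11 of them on every slide. Of the 16 genes of type 2 cells, which make surfactant, 15 had lower means. The median was -0.15, with none apart and only 2 lower on every slide.

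Smooth muscle genes were lower as well. Calponin (*Cnn1*) was 12.02, 10.00 and 10.63 in OB and 12.55, 12.74 and 12.15 in non-OB, a difference of -1.60 (SE 0.53), and *Myocd*, the co-activator of the smooth muscle programme, differed by -0.61 (SE 0.22). *Acta2*, the smooth muscle actin that myofibroblasts also make, was 13.33, 13.57 and 12.81 against 13.91, 13.69 and 14.03, a difference of -0.64 (SE 0.27) without overlap, but its 3 probes ranged from -0.64 to -0.02. The probe at -0.02 was about as bright and overlapped, at 13.55, 13.60 and 13.48 against 13.76, 13.58 and 13.35. Of the 15 genes 13 were lower, with a median of -0.32 and 4 apart. The 10 measured mesothelial genes, which mark the pleural surface, were all lower (median -0.51, 7 on every slide, 1 apart). *Wt1*, a nuclear factor of the mesothelium, was 8.85, 8.44 and 8.96 against 9.40, 10.15 and 9.16.

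Genes of scar tissue were not higher in OB as a group. The 25 matrix genes had a median of 0.02 with none apart, and their slide medians were -0.43, 0.94 and -0.34, with slide 2 alone above 0. *Col1a1*, the main chain of type I collagen, was 14.59, 15.68 and 13.65 against 15.46, 14.09 and 13.61. The 20 genes of TGF-beta signalling had a median of -0.08. Of these 14 were lower, where 64.4% of all genes were, and *Tgfb1* differed by 0.08 (SE 0.22). The 3 genes apart below were the inhibitory *Smad6* (-0.66, SE 0.29) and *Smad7* (-0.36, SE 0.21) and the shared mediator *Smad4* (-0.11, SE 0.18). Of the 21 genes of fibroblasts and myofibroblasts 2 were apart above, *Thy1*, which T cells also make (0.44, SE 0.22), and *Pdgfc*, a growth factor for fibroblasts, at 9.60, 9.73 and 9.74 against 8.47, 9.33 and 8.80 (difference 0.83, SE 0.27). *Mmp3*, stromelysin, was 0.97 lower on average in OB with no overlap (11.30, 11.35 and 10.69 against 12.16, 12.39 and 11.72).

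**Figure D4:**
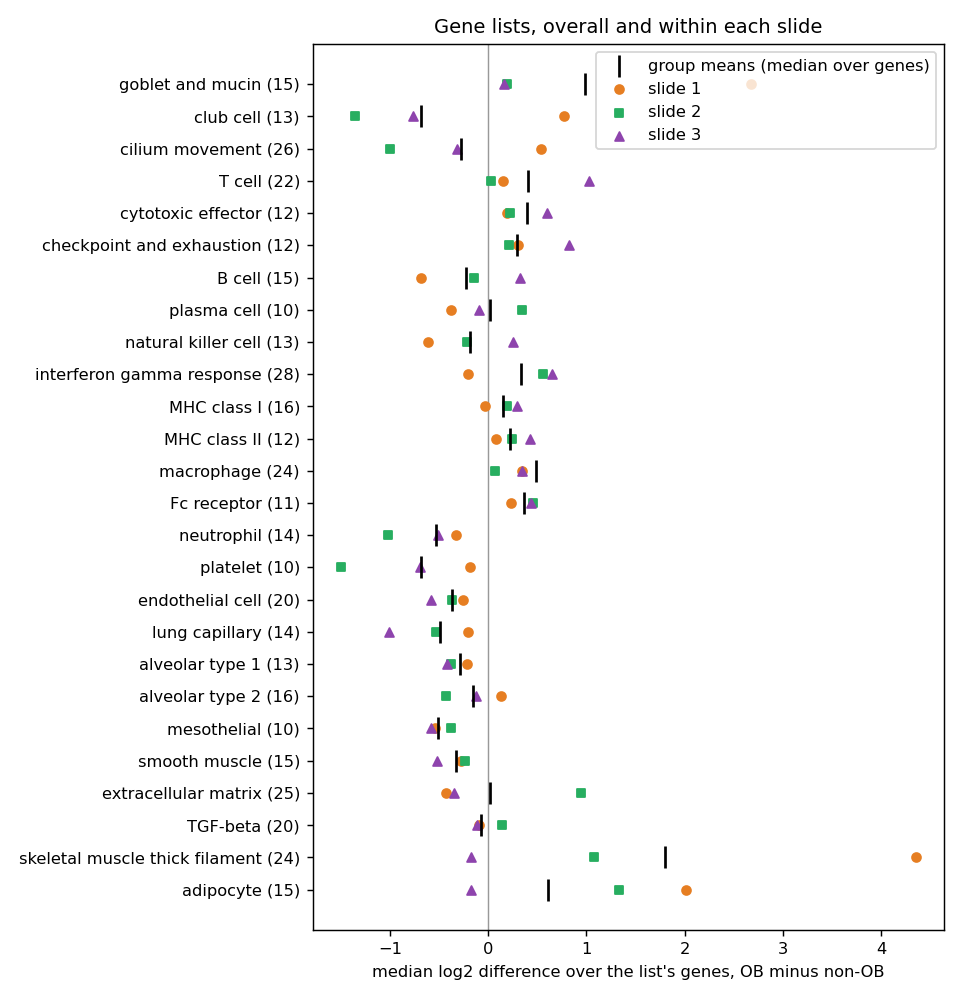
Median log2 difference (OB minus non-OB) over the measured genes of 26 lists, with the number of genes in brackets, for the group means (black bars) and for each slide (symbols). The endothelial, lung capillary, alveolar type 1, mesothelial, smooth muscle, neutrophil and platelet lists lay below 0 on all 3 slides. The mucin, club cell, cilium and matrix lists differed in sign or size between slides.

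Skeletal muscle and fat genes set apart 2 of the OB grafts. The fast myosin heavy chain *Myh1* was 11.78, 9.41 and 4.35 in OB 1, 2 and 3 and 2.73, 4.73 and 3.09 in non-OB, and was well above background only in OB 1 and OB 2. Troponin C (*Tnnc2*) was 12.99, 10.64 and 6.27 against 5.56, 5.68 and 6.36. Of the 24 genes of the thick filament and sarcomere frame 21 were higher, with a median of 1.80, but the slide medians were 4.35, 1.07 and -0.17. Their summed scaled signal was 39424, 9012 and 3656 in OB 1 to 3 and 2859 to 4094 in non-OB, and sham lungs lay above OB 2 and OB 3, with a highest sum of 31027. The median was 0.70 without OB 1 and 0.89 after normexp and quantile normalization. *Myh1*, *Myh2*, *Myh4* and *Tnnc2* were also low in sham lungs, where *Mb*, the myoglobin gene that heart muscle shares, was high (11.71 ± 0.89, SD). *Mb* was 10.93, 7.30 and 5.15 in OB and 1.96, 4.82 and 2.41 in non-OB, where it was not well above background, at least 14.0-fold higher in OB. The mitochondrial creatine kinase *Ckmt2* was 8.52, 6.66 and 4.71 in OB and 2.04, 2.90 and 2.24 in non-OB, a difference of 4.24 (SE 0.93). It was well above background on only 2 arrays, so no lower bound of the fold is given. *Tcap*, a cap protein of the sarcomere, was 12.20, 10.09 and 9.42 against 7.79, 9.11 and 9.04, or 1.92 higher (SE 0.78). Neither gene overlapped, but OB 3 was the lowest OB graft for both.

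Adipocyte genes moved with them. Adiponectin (*Adipoq*) was 9.86, 8.72 and 3.81 against 2.00, 3.73 and 3.91, and adipsin (*Cfd*) 13.63, 12.82 and 7.25 against 4.98, 7.43 and 3.53. The 15 adipocyte genes summed to 33881, 21989 and 8923 in OB 1 to 3, to 5132 to 9531 in non-OB and to 14638 to 34121 in sham lungs. *Fabp4*, a fatty acid carrier of fat cells, capillaries and macrophages, did not overlap (12.97, 12.16 and 11.04 against 9.21, 10.40 and 10.27). The part of attached muscle or fat in the other differences was not tested.

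**Figure D5:**
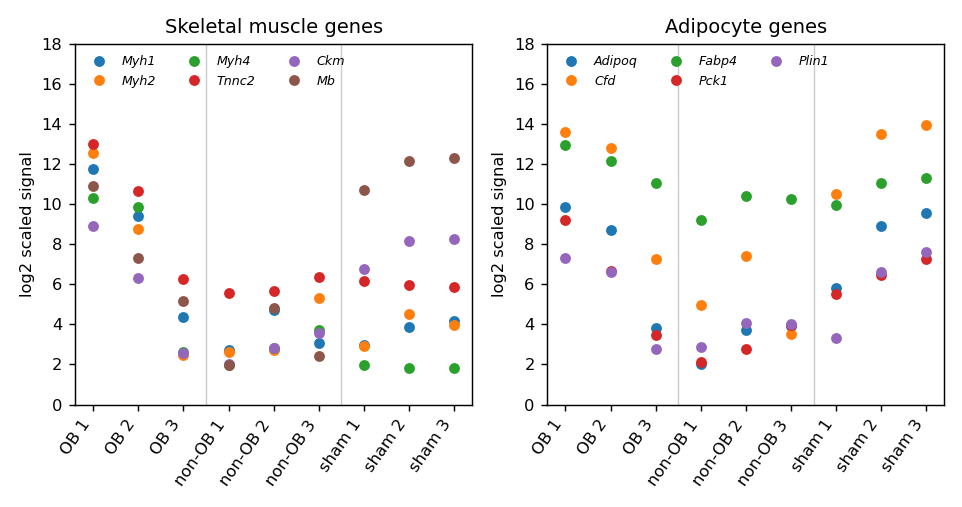
Log2 scaled signal of skeletal muscle genes (left) and adipocyte genes (right) on each OB, non-OB and sham array, with 1 point for each gene and array. OB 1 and OB 2 lay above all non-OB grafts for every gene drawn, while OB 3 stood within or below the non-OB range for all but *Mb* and *Fabp4*.

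The remaining genes with the smallest p are less well placed by known function. *Gng3*, a G protein subunit of neurons, was well above background only in OB and at least 3.08-fold higher, and *Bhlhe22*, a transcription factor of neurons, at least 2.71-fold higher. Both levels were near the background, with OB means of 5.13 and 5.27. Lower in OB were *Rgs9*, a brake on G protein signals (9.05, 9.30 and 9.16 against 10.17, 10.06 and 10.47), and *Akap12*, a scaffold of protein kinase A (11.70, 12.05 and 11.71 against 12.72, 12.76 and 12.64). For both the difference was even across the slides, at -1.12, -1.17 and -0.90 for *Rgs9* and -1.02, -0.59 and -1.05 for *Akap12*. The 4 probes of *Rgs9* ranged from -1.09 to -0.33. The smallest p of any gene that met the conditions belonged to *Gm17455*, a predicted gene that was well above background in every non-OB graft and in no OB graft (at least 3.98-fold lower). *Adgrd1*, *Scn3b*, *Bdkrb2* and *Lgals7* were lower in OB by means of 1.12, 0.99, 1.18 and 1.78, *Scrg1* by at least 3.77-fold, and *Slc38a11* and *Rgs8* were higher by 2.57 and 1.95, all without overlap and in the same direction on every slide. *Mirt2* and *Vat1l* were well above background in every non-OB graft and in OB 1 alone among the OB grafts, with means of 6.98 and 5.95 against 4.31 and 3.46.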

How the data were processed

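One array was hybridised for each of 3 OB, 3 non-OB and 3 sham lungs. The authors labelled the RNA with 1 dye and deposited each spot's intensity as extracted with Agilent Feature Extraction 12.0.3.1 (version per the submitters' processing notes), background-subtracted, with no counts, so the number of arrays limits the precision. Here control spots and spots marked as outliers were left out, each array was scaled to a trimmed mean of 2500 (2% at each end), which matched the authors' value table, and log2 values were fitted for the 6 grafts with limma 3.58.1 in R 4.3.3, adjusting over 56603 probes (statmod 1.5.0 for random blocks; Python 3.11.15). On simulated data with 200 changed probes, 47% of log2 changes of 2 and 94% of changes of 4 were recovered, or 0% and 75% with the slide as a block. The simulated arrays were independent, with no slide effect, and only brighter probes were changed. A block could only lose power there, so these shares do not show what it costs on the real arrays.

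Genes were named through RefSeq accessions in the GRCm38.p6 table, which matched 32992 probes of 22910 genes, with no coordinates because the array was designed on another build. A gene's probe is the brightest over the 6 grafts. Named genes were members of the 57 gene lists, genes the study names, the 12 largest differences and 8 smallest p in each direction among genes whose groups did not overlap at p under 0.05 and that were well above background in the brighter group, and the 5 most variable genes of each group. Members and lists were chosen with earlier results of these data known. Where a probe was well above background on no array of a group, the fold is a lower bound against each array's lowest signal above background. Replicate numbers did not pair the arrays (deviations correlated at 0.28, -0.40 and 0.03). The deviations of each OB array correlated best with those of its slide mate. Nothing says more on separate cultures or litters than 1 mouse for each array. Alternatives were other scalings, normexp on the median signal (the mean signal is not among the columns used here), filters, blocks, designs, the methods' t-test and each array or slide left out.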

Additional observations from a re-analysis of the deposited data

How the results depend on the processing

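No probe passed an adjusted p under 0.05 in any setting, or under 0.1 in the main fit. None of the 51 genes whose difference was followed through 20 settings changed direction or passed (smallest adjusted p 0.694). Only their sizes and the counts moved. Most of these genes had groups that did not overlap, so leaving out an array or a slide could not reverse them. Blocks leave the mean difference of this balanced design as it is, so mainly the other scalings could have reversed a gene. At an unadjusted p under 0.05 the counts of 241 higher and 630 lower became 463 and 408 with quantile normalization, 436 and 396 with normexp and quantile normalization, 453 and 1148 with the slide as a fixed block and 637 and 1620 with it as a random block. They became 142 and 297 with a difference of at least 2 times, 143 and 266 with 1 probe per gene, and 204 and 373 among the probes left by the filter on dim signals. Each array left out in turn gave 246 to 403 higher (highest without OB 3, and 398 without OB 1) and 441 to 1302 lower (highest without non-OB 1), and leaving out slide 3 gave 376 higher. In settings chosen after seeing the data, the slide block with quantile normalization gave 791 and 771, with 75th percentile scaling 551 and 972, and without slides 1, 2 and 3 it gave 643, 413 and 684 higher and 1280, 604 and 1909 lower. The replicate block, with numbers that do not pair the arrays, gave 308 and 645, and not every array correlated best with its own number. Of the non-overlapping probes, 619 higher and 1617 lower, quantile normalization gave 1082 and 1046, normexp with it gave 1401 higher, the filter on dim probes 1034 lower and 1 probe per gene 328 and 823. Fewer arrays raise this count by construction: it was 1390 to 2753 and 3067 to 6742 without 1 array, and 3572, 3081 and 3745 higher and 9193, 6200 and 5431 lower without slides 1, 2 and 3. The median over all probes lay between -0.17 and 0.016 without 1 array.

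Of 1197 list medians 84 changed sign and 26 moved by more than the SD of the slide medians. Without slide 1 they were 0.32 for macrophages, -0.013 for chemokines, -0.29 for metalloproteinases, -0.19 for pancreas and salivary gland and -0.21 for the circadian clock. Without slide 2 they were 0.18 for Toll-like receptors and 0.20 for Fc receptors, and without slide 3 they were 0.10 for cytotoxic effectors and 0.80 for eosinophils. The mesothelial median was -0.28 after normexp and quantile normalization. Leaving out 1 array gave 0.16 to 0.49 for cytotoxic effectors, -0.11 to 0.23 for monocytes, 0.054 to 0.33 for dendritic cells, -0.000747 to 0.16 for Toll-like receptors, 0.24 to 0.35 for Fc receptors, -0.18 to 0.085 for basal and squamous epithelium, -0.40 to -0.20 for alveolar type 1, -0.57 to -0.28 for endothelium, -0.73 to -0.33 for the mesothelium, -0.14 to 0.079 for metalloproteinases and -0.044 to 0.19 for pancreas and salivary gland. The causes were not tested. Dim probes limit what can be said of genes near the background.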

Other observations

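Platelet and red cell transcripts were also lower in OB by their means. The 10 platelet genes had a median log2 difference of -0.69 (-0.15 after normexp and quantile normalization) and 9 were lower, 6 of them on all 3 slides. The 2 genes apart lay below, among them *Treml1* (8.51, 7.92 and 8.05 in OB against 8.70, 8.77 and 8.77 in non-OB). *Pf4* was not apart and differed by 0.06 (SE 0.27). The 10 measured erythroid genes had a median of -0.78 with none apart, and of 0.17 on slide 1, -0.34 without OB 2 and -0.34 after normexp and quantile normalization. Of the 18 immediate early and heat shock genes 16 were lower (median -0.44), 3 of them apart and 9 on all 3 slides. All 10 measured genes of mast cells and basophils had lower means (median -0.37), with 1 apart. The 8 eosinophil genes had a median of 0.37, but *Epx*, the eosinophil peroxidase gene that defines the cell, was well above background on no graft array. The 22 proliferation genes had a median of 0.11 with none apart.

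Some genes varied widely within a group. *Cyp26b1*, the enzyme that clears retinoic acid, was 11.23, 9.22 and 14.22 in OB and 8.47, 12.81 and 13.75 in non-OB. *Tff2*, a peptide that joins mucus, was 11.30, 6.16 and 11.47 in OB against 9.50 to 10.15 in non-OB. *Myh6*, the atrial myosin of pulmonary vein walls, was 11.18, 7.85 and 11.30 in OB and 8.64, 10.96 and 6.35 in non-OB, below the 15.37 ± 0.76 (SD) of sham lungs. The kininogen gene *Kng1* was 6.74, 6.26 and 9.86 in non-OB, so that non-OB 3 stood alone.

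The lists not described so far are given by their medians. The Fc receptor list lay above 0 on every slide (0.23, 0.46 and 0.44) with 2 of 11 genes apart, *Fcgr3* and *Fcer1g*. The dendritic cell list had 4 of 13 genes apart above, *Flt3*, *Itgax*, *Xcr1* and *Clec10a*, and *Zbtb46* apart below, with slide medians of 0.01, 0.12 and 0.33. The regulatory T cell list had 8 of 9 genes higher (0.12, 0.09 and 0.47 on the slides). The median log2 differences were -0.03 for T cell cytokines, 0.26 for regulatory T cells, 0.01 for plasma cells, 0.03 for tertiary lymphoid genes, 0.01 for monocytes, 0.24 for dendritic cells, 0.36 for Fc receptors and 0.01 for chemokine receptors. They were 0.17 for the type I interferon response, 0.04 for Toll-like receptors, -0.23 for inflammatory cytokines, 0.10 for complement, 0.03 for basal and squamous epithelium, 0.19 for lymphatic endothelium, -0.02 for fibroblasts and myofibroblasts and 0.04 for metalloproteinases. Skeletal muscle lists other than the thick filament had medians of 0.56 (thin filament), 0.64 (calcium and metabolism) and 0.45 (regulators), cardiac muscle had 0.23, cartilage and bone 0.16, thymus 0.13, Schwann cells and neurons 0.05, pancreas and salivary gland 0.01, the circadian clock 0.11, and hypoxia and glycolysis -0.03. The defining thymus gene *Rag1* was well above background on no graft array.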
